A study of Mus musculus with 10 samples.

Results

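The genes described here are immediate early and heat shock genes, 10 symbols chosen by name: Fos, Fosb, Jun, Junb, Egr1, Ier2, Hspa1a, Hspa1b, Dnajb1 and Hspa8. Of these, 9 have a row among the 14796 named genes analysed, 5 immediate early genes (Fos, Jun, Junb, Egr1 and Ier2) and 4 heat shock genes (Hspa1a, Hspa1b, Dnajb1 and Hspa8), and Fosb has none. RNA of the telencephalon of mouse embryos at embryonic day 12 was sequenced as total RNA in 10 samples. The null group (2 samples) carries a null allele of Polr1a, the gene for the largest subunit of RNA polymerase I, and the missense group (3 samples) carries an allele whose protein change is C1559F. The wild types carry neither allele by their labels. The first number in the sample titles takes 2 values. The 2 null samples share it with 2 wild types (the null set) and the 3 missense samples with 3 wild types (the missense set), and mutants were compared with wild types within a set. The meaning of that number is not in the labels, nor are zygosity, strain, sex or litter, so the p-values below measure the spread between these samples.

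Immediate early genes are transcribed within minutes of a stimulus without new protein synthesis, mostly through serum response factor with its ternary complex partners and through CREB, and their transcripts are short-lived. Fos and Jun family proteins dimerise to form the transcription factor AP-1. Heat shock genes are induced when misfolded proteins release the transcription factor HSF1, which binds heat shock elements in their promoters. In brain tissue both families are also known to respond to dissection, ischaemia and handling before RNA is preserved.

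All values are log2 CPM, reads of a gene per total reads of its sample on a fixed scale, in which a difference of 1 is a doubling. They are not scaled by gene length, so levels are compared between samples of a gene and not between genes. Sequencing depth cannot be read from the values, since those of every sample add up to nearly 1 total (1000450 to 1000890 CPM). Pairs of samples correlated at 0.938 to 0.964 across all genes. Polr1a stood at 4.99 and 4.82 in the null samples, against 5.38 and 5.38 in the null-set wild types, and at 5.09, 5.66 and 5.79 in the missense samples, against 5.62, 5.51 and 5.64 in the missense-set wild types. Markers of the telencephalon were present in every sample: Emx1 of the dorsal part lay between 5.45 and 5.90, and Dlx2 of the ventral part between 5.30 and 7.39. Across all genes, limma with Benjamini-Hochberg adjustment called 24 genes at an adjusted p under 0.05 in the null comparison, which is 0.162% of those tested, and 3 in the missense comparison, which is 0.0203%.

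The sequences before the transcription starts of Jun, Hspa1a and Hspa1b are shown because Jun had the smallest p of the 9 genes in both comparisons, and because Hspa1a and Hspa1b are neighbouring copies whose reads are hard to separate. They are from RefSeq, in build GRCm38.p6, and cover the 250 bases before each start on the strand of the gene. The submitters' processing notes name build GRCm39, and no coordinate was converted. RefSeq windows of 6 of the 9 genes were examined, and none was examined for Egr1, Ier2 and Hspa8. Capitals mark matches on either strand to GAANNTTC, the core of a heat shock element, to TGACATCA, known in the human JUN promoter as jun1, and to TTACCTCA, known there as jun2. The Jun stretch lies at chr4:95052223-95052472 on the minus strand, that of Hspa1a at chr17:34972157-34972406 on the minus strand and that of Hspa1b at chr17:34959239-34959488 on the minus strand.
Jun: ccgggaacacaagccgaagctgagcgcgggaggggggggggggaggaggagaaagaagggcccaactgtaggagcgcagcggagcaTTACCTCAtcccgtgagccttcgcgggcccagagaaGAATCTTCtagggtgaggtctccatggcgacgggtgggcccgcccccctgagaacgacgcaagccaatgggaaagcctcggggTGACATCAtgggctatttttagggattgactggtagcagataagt
Hspa1a: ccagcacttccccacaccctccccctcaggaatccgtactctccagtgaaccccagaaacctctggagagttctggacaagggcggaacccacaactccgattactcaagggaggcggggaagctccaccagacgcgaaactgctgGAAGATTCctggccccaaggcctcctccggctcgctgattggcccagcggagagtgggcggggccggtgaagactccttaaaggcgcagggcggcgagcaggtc
Hspa1b: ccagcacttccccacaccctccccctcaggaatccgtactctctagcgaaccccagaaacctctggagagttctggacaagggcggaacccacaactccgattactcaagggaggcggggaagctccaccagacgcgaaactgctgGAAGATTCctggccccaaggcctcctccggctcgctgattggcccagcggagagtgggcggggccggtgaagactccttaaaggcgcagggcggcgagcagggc

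The Hspa1a and Hspa1b stretches are identical at 247 of 250 positions (98.8%), and in both the heat shock core begins 104 bases before the start. In Jun, jun2 begins 164 bases, the heat shock core 128 bases and jun1 45 bases before the start. Among 32851 RefSeq promoter windows of the mouse, each reaching from 250 bases before to 50 bases after a start, GAANNTTC was present in 7.86%, jun1 in 3.62% and jun2 in 0.889%. Also searched on both strands were TGACGTCA, the cAMP response element (1.79% of windows), TGANTCA, the AP-1 element (7.81%), TATAAA, the TATA box (13.6%), and the CArG box of serum response factor (1.63%), with no match in the 3 stretches shown, and CCAAT (37.4%), with 1 match in each that is left in lower case. The windows of Fos, Junb and Dnajb1 held no match to GAANNTTC, jun1, jun2, the cAMP response element, the AP-1 element or the CArG box. TATAAA was found for Fos and Junb, and CCAAT for Junb and Dnajb1. A match describes letters and does not show that a factor binds. Downstream of the start the copies also share sequence: of the stretches of 100 bases in the longest annotated Hspa1a transcript (GENCODE M21), 47.1% occur unchanged in Hspa1b, 4.67% in the neighbouring Hspa1l and 0 of 2868 in Hspa8. How the authors' counting assigned reads that match both copies is not given in the sources used here, so the separate Hspa1a and Hspa1b values are uncertain.

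None of the 9 genes passed an adjusted p of 0.05 in either mutant, and Jun came closest. Jun encodes the AP-1 subunit c-Jun, which has roles in neural progenitors and in stress signalling. Jun was at 6.48 and 6.52 in the null samples, against 6.92 and 6.96 in the null-set wild types. In the other comparison Jun was at 6.63, 6.58 and 6.77 in the missense samples, against 6.85, 6.83 and 6.82 in the missense-set wild types. Every mutant sample was below every wild type of its own set, and also below every wild type of the other set.

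The log2 change of Jun in the null samples was -0.44 (SE 0.10, n = 2 against 2, 95% interval -0.66 to -0.23), a fold of 0.736. Its unadjusted p was 0.000947, rank 88 of all genes tested, and its limma adjusted p was 0.158. An exact 2-sided permutation test on 2 samples against 2 gave p = 0.333, the smallest that this design allows. For Jun in the missense samples the log2 change was -0.17 (SE 0.08, n = 3 against 3, 95% interval -0.35 to 0.01), with an unadjusted limma p of 0.0576, an adjusted p of 0.902 and an exact permutation p of 0.1, again the smallest that the design allows. The missense change minus the null change was 0.27 (SE 0.13, 95% interval -0.01 to 0.55, limma adjusted p = 1), so a difference between the mutants was not called. Jun had an unadjusted p under 0.05 in the null comparison only, as did 8.32% of all genes, and in the missense comparison 5.54% of all genes did.

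The mean of both comparisons was added after these values were seen, as a description of Jun. Over 5 mutants against 5 wild types, the mean log2 change of Jun was -0.31 (SE 0.06, 95% interval -0.45 to -0.17), with a limma adjusted p of 0.101 and rank 81. For this mean, 0.27% of all genes passed an adjusted p of 0.05 and 10.7% an unadjusted one. All 5 mutants below all 5 wild types was found for 0.574% of genes, and groups that did not overlap, with the mutant lower in both comparisons, for 1.38%. These patterns were defined from the Jun values, and the shares for the opposite direction were not computed. None of the other 8 genes had groups that did not overlap in the same direction in both comparisons, and their adjusted p for the mean ranged upward from 0.647, that of Hspa1b.

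Jun also varied little within groups. Its residual SD was 0.061, which is 0.469 of the value that the trend of SD on level gives for its level, and only 4.26% of genes had a lower ratio. The SDs were 0.03 in the null samples, 0.10 in the missense samples, 0.03 in the null-set wild types and 0.01 in the missense-set wild types. Between the wild types, Jun differed by -0.11 (missense set minus null set), with groups that did not overlap (limma adjusted p = 0.852). In the annotation a noncoding gene on the opposite strand, Junos, overlaps Jun. It has no row here, and whether counting used the strand is not given in the sources used here.

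**Figure D1:**
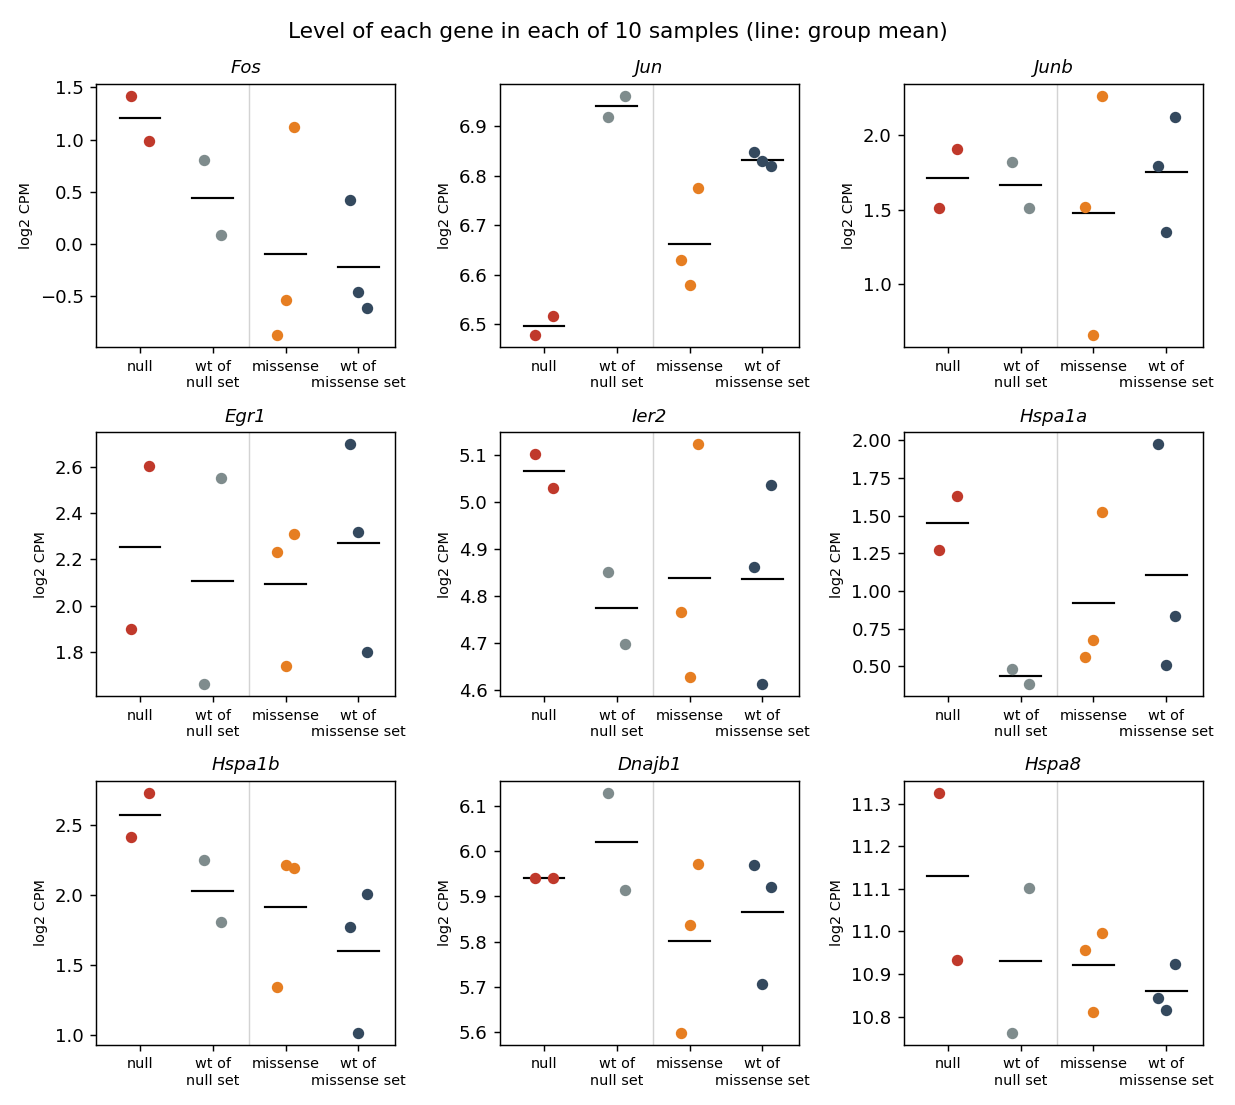
Log2 CPM of each of the 9 genes (vertical axes, each with its own range) in the 10 samples, as points by group with lines at the group means, each mutant left of the wild types of its set. In the Jun panel the null samples, at 6.48 and 6.52, and the missense samples, at 6.58 to 6.77, lie below all wild types, which start at 6.82.

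The other 4 immediate early genes had log2 changes above 0 in the null samples, none of which passed the test. Fos encodes the AP-1 partner of Jun and is the usual marker of recent cell stimulation. Fos was at 1.42 and 0.99 in the null samples, against 0.80 and 0.08 in the null-set wild types. The groups did not overlap, and the change was 0.76 (SE 0.75, 95% interval -0.88 to 2.41, limma adjusted p = 0.851). Fos was at -0.87, -0.54 and 1.12 in the missense samples, against 0.42, -0.45 and -0.61 in the missense-set wild types. These groups overlapped (change 0.12, SE 0.61, limma adjusted p = 0.986), and missense 3 alone was above all missense-set wild types. Without missense 3 the change was -0.49.

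Ier2, a nuclear protein induced by growth factors, was at 5.10 and 5.03 in the null samples, against 4.85 and 4.70 in the null-set wild types. The groups did not overlap, and the change was 0.29 (SE 0.19, 95% interval -0.14 to 0.72, limma adjusted p = 0.755). In the missense samples Ier2 was at 4.77, 4.63 and 5.12, against 4.86, 4.61 and 5.04 in the missense-set wild types, a change of 0.00 (SE 0.16, 95% interval -0.35 to 0.35). Both missense comparison groups covered almost the same range.

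Junb, an AP-1 subunit that often opposes c-Jun, was at 1.51 and 1.91 in the null samples, against 1.82 and 1.52 in the null-set wild types, a change of 0.04 (SE 0.52). It was at 1.52, 0.66 and 2.27 in the missense samples, against 1.79, 1.35 and 2.12 in the missense-set wild types, a change of -0.27 (SE 0.42). The missense samples held both the lowest and the highest Junb level of all 10 samples. Junb overlaps Prdx2, a gene on the opposite strand that has a row of its own, so reads of the pair may not be separable.

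Egr1, a zinc finger factor that is induced by activity and growth factors, was at 1.90 and 2.61 in the null samples, against 1.66 and 2.55 in the null-set wild types, a change of 0.15 (SE 0.44). It was at 2.23, 1.74 and 2.31 in the missense samples, against 2.70, 2.32 and 1.80 in the missense-set wild types, a change of -0.18 (SE 0.36). Egr1 groups overlapped in both comparisons, with limma adjusted p of 0.964 for the null and 0.963 for the missense samples. The 95% interval of Egr1 was -0.82 to 1.12 in the null and -0.97 to 0.61 in the missense comparison, and that of Junb was -1.09 to 1.18 in the null and -1.20 to 0.65 in the missense comparison.

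Hspa1a and Hspa1b encode the stress-inducible HSP70 chaperone. Hspa1a was at 1.27 and 1.63 in the null samples, against 0.49 and 0.38 in the null-set wild types. The groups did not overlap. The change of 1.01 was the largest of the 9 genes in size, but its interval ran from -0.25 to 2.28 (SE 0.57, limma unadjusted p = 0.104, limma adjusted p = 0.705). Hspa1a was, in the missense samples, at 0.56, 0.68 and 1.52, against 1.97, 0.51 and 0.83 in the missense-set wild types (change -0.18, SE 0.47, limma adjusted p = 0.968). The single highest Hspa1a level was in a wild type, replicate 1 of the missense set.

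Hspa1b was at 2.42 and 2.73 in the null samples, against 2.25 and 1.81 in the null-set wild types (change 0.54, SE 0.44, limma adjusted p = 0.810). It was at 1.34, 2.22 and 2.19 in the missense samples, against 1.77, 1.02 and 2.005 in the missense-set wild types (change 0.32, SE 0.36, limma adjusted p = 0.946). The null groups did not overlap, and the missense groups did.

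Because the copies share sequence, their linear values were also summed, an alternative added after seeing the data. The summed log2 level was 2.96 and 3.28 in the null samples, against 2.62 and 2.26 in the null-set wild types, a change of 0.67 (SE 0.41, 95% interval -0.23 to 1.58, limma adjusted p = 0.737). It was 2.01, 2.64 and 2.90 in the missense samples, against 2.88, 1.79 and 2.54 in the missense-set wild types, a change of 0.12 (SE 0.33, limma adjusted p = 0.970). The sum therefore gave the same calls as the separate rows, with the null samples above their wild types. Hspa1b made up 46.6% of the sum in missense-set wild type replicate 1 and 77.3% in null-set wild type replicate 1, and lay between these in the other samples. The annotation places a gene model on the opposite strand over Hspa1a, which has no row of its own here.

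Dnajb1 encodes the HSP40 co-chaperone that delivers substrates to HSP70, and Hspa8 the constitutive HSP70, HSC70, which is made in unstressed cells. Dnajb1 was at 5.94 and 5.94 in the null samples, against 6.13 and 5.91 in the null-set wild types (change -0.08, SE 0.15, 95% interval -0.41 to 0.25). It was at 5.599, 5.84 and 5.97 in the missense samples, against 5.97, 5.71 and 5.92 in the missense-set wild types (change -0.06, SE 0.12, 95% interval -0.33 to 0.21). The groups overlapped in both comparisons, and the limma adjusted p was 0.930 for the null and 0.962 for the missense samples.

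Hspa8 was at 11.33 and 10.93 in the null samples, against 10.76 and 11.10 in the null-set wild types (change 0.20, SE 0.14, 95% interval -0.11 to 0.50, limma adjusted p = 0.776). It was at 10.96, 10.81 and 10.997 in the missense samples, against 10.84, 10.81 and 10.92 in the missense-set wild types (change 0.06, SE 0.11, 95% interval -0.19 to 0.31, limma adjusted p = 0.960). The Hspa8 groups overlapped in both comparisons. Its spread within groups was 1.60 times that of the trend at its level, with null 1 the highest and null-set wild type replicate 1 the lowest of all samples. The snoRNA genes Snord14c, Snord14d and Snord14e lie in Hspa8 on its own strand and have no rows here.

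**Figure D2:**
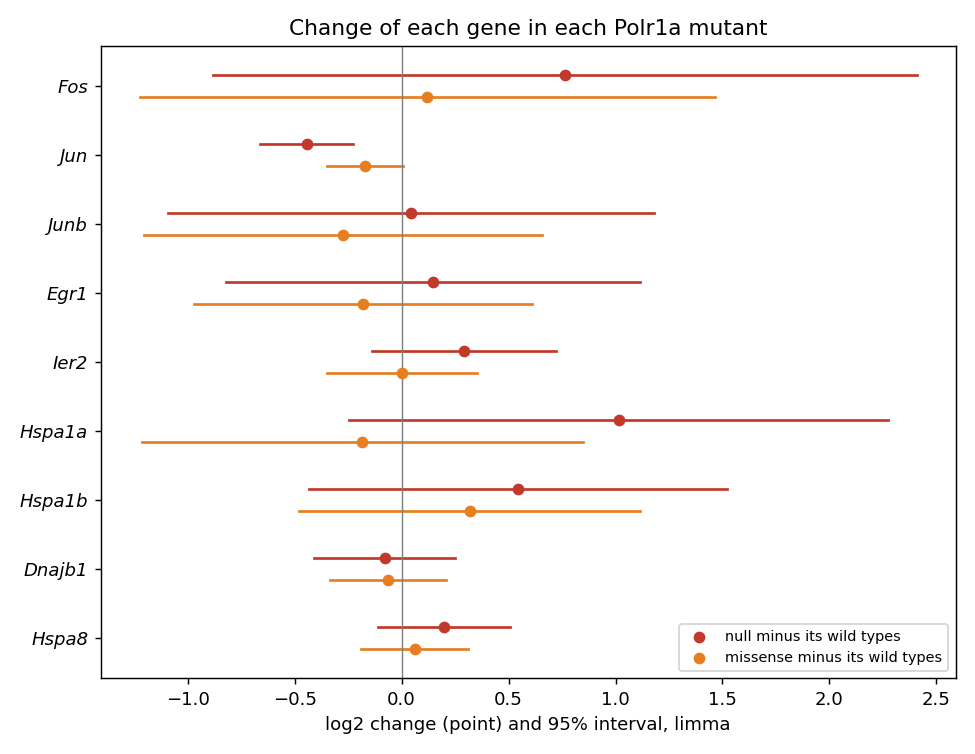
Log2 change (points) with 95% limma intervals (lines) of each gene, in the null samples minus the null-set wild types and in the missense samples minus the missense-set wild types. The null interval of Jun, -0.66 to -0.23, is the only one that leaves out 0, and those of Fos, Junb, Egr1, Hspa1a and Hspa1b are several times wider.

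Counted together, 7 of the 9 genes had a log2 change above 0 in the null samples, as did 54.6% of all genes, and 4 in the missense samples, as did 54.0% of all genes. The median log2 change was 0.20 in the null comparison (0.03 over all genes) and -0.06 in the missense comparison (0.02 over all genes). In the null comparison Fos, Ier2, Hspa1a and Hspa1b had all null samples above all wild types, which also holds for 22.9% of all genes, and Jun had all null samples below, which holds for 14.8%. The missense comparison had 0 of the 9 genes with all missense samples above, against 6.02% of all genes, and Jun with all of them below, against 4.89%. The 4 heat shock genes had a median change of 0.37 in the null samples and 0.00 in the missense samples, and the 5 immediate early genes one of 0.15 in the null samples and -0.17 in the missense samples.

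The change in the missense samples minus that in the null samples was below 0 for 7 of the 9 genes, with a median of -0.29. The most negative was that of Hspa1a, -1.20 (SE 0.74, 95% interval -2.83 to 0.43). None passed an adjusted p of 0.05, which 0.0135% of all genes did, and none had an unadjusted p under 0.05, which 4.13% did. The log2 level of the missense-set wild types minus that of the null-set wild types was -0.66 for Fos (SE 0.68) and 0.67 for Hspa1a (SE 0.52). None of the 9 genes passed an adjusted p of 0.05 between the wild types, against 0.0946% of all genes, and none an unadjusted one, against 7.37%. Hspa1a had all missense-set wild types above all null-set wild types, as did 13.7% of all genes, and Jun had them all below, as did 9.76%.

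The rows of 5 of these genes are low, below the 25th percentile of the mean level of all genes (2.60): Fos, Hspa1a, Junb, Hspa1b and Egr1. The 4 genes at or above it are Jun, Ier2, Dnajb1 and Hspa8. The range over all 10 samples, as a fold, was 4.90 for Fos, 3.27 for Hspa1b, 3.05 for Junb, 3.004 for Hspa1a and 2.06 for Egr1. The same range was 1.48 for Hspa8, 1.44 for Dnajb1, 1.42 for Ier2 and 1.40 for Jun. The SD of 8 of the 9 genes, set against the trend for their level, lay between the 41.2 and the 84.5 percentile of all genes, the highest being Hspa8, and that of Jun at the 4.26 percentile.

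The number of the genes above the group mean differed between samples. Missense 3 was above its group mean in 9 of 9 genes, and missense-set wild type replicate 1 in 8. Missense-set wild type replicate 2 was above its group mean in 1 of 9 and missense 2 in 2 of 9. These are the highest and lowest counts among the 10 samples, and no share over all genes was computed. Deviations within a group cancel out, so a high sample places others of its group low. Missense 3 exceeded its group by a mean of 0.52 on the log2 scale over the 5 immediate early genes and 0.28 over the 4 heat shock genes. It also had the highest summed level of the missense samples for 14 markers of head mesenchyme and meninges (3491 CPM, against 2566 and 2779 CPM in the other missense samples) and for 16 markers of microglia and macrophages (180.2 CPM, against 144 and 169 CPM). Its summed levels were the lowest of the missense samples for 12 markers of telencephalon (1585 CPM, against 1780 and 1898 CPM) and for 10 markers of neurons (3596 CPM, against 4120 and 4241 CPM). Missense-set wild type replicate 1, high in 8 of the 9 genes, lay in the middle of its group for the mesenchyme markers (2679 CPM, against 2021 and 3324 CPM in the other missense-set wild types) and for the microglia markers (124 CPM, against 111 and 129 CPM). Of the samples low in most of the 9 genes, missense-set wild type replicate 2 had the lowest sum of its group on both lists (2021 and 111 CPM). Missense 2 did so too (2566 and 144 CPM). For the telencephalon markers missense-set wild type replicate 2 was also lowest of its group (2004 CPM), and missense 2 lay in the middle (1780 CPM). The part of these cell types in the gene levels was not tested, and in bulk samples fewer cells of a type and less RNA per cell cannot be told apart.

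Across the 10 samples, the 36 pairs of the 9 genes had a median Pearson r of 0.28, with 28 positive. Within the 6 samples of the missense set the median was 0.48, and for deviations from group means it was 0.47. The highest r was that of Junb and Ier2, 0.753 (Spearman rho 0.721, permutation p = 0.00745 for r and 0.0237 for rho, adjusted over 36 pairs 0.266 and 0.391). It was 0.908 within the missense set and 0.625 without missense 2 and missense 3, the samples farthest from the Junb median. Fos and Dnajb1 correlated at 0.710 (rho 0.758, permutation p = 0.0152 and 0.0149, adjusted 0.266 and 0.391), at 0.723 within the missense set and at 0.673 without null 1 and missense 1.

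Hspa1b and Dnajb1 correlated at 0.697 (rho 0.539, permutation p = 0.0262 and 0.114, adjusted 0.266 and 0.463). This r was 0.747 within the missense set and 0.894 for deviations from group means, but 0.0716 without missense-set wild type replicate 2 and missense 1, the samples farthest from the Hspa1b median, so the relation over all 10 samples rests on those samples. In all, 6 of the 36 pairs had a permutation p under 0.05 for r and 4 for rho, and 0 passed after Benjamini-Hochberg adjustment. Of the 8 negative pairs, 3 held Egr1 and 5 held Jun, whose r was -0.43 with Hspa1b, -0.38 with Hspa8, -0.31 with Hspa1a, -0.30 with Ier2 and -0.19 with Fos. In deviations from group means all 5 of these were positive, at 0.12, 0.26, 0.61, 0.62 and 0.70 in the same order.

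**Figure D3:**
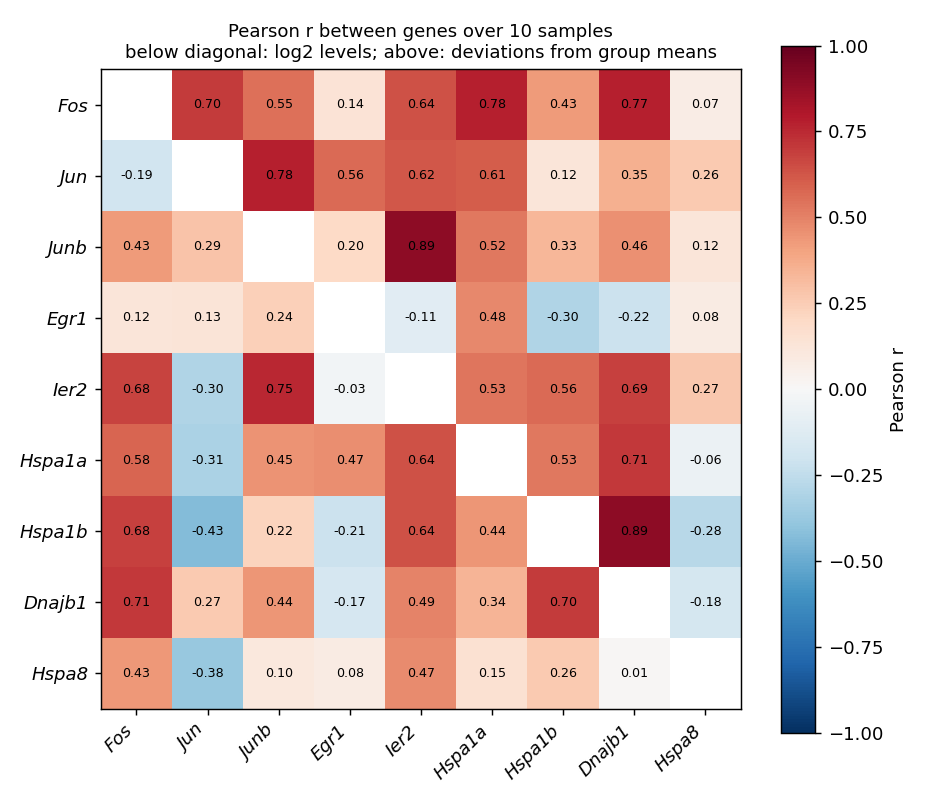
Pearson r between each pair of the 9 genes over 10 samples, for log2 levels below the diagonal and for deviations from group means above it, as colour and as printed values. Jun has negative r with Fos, Ier2, Hspa1a, Hspa1b and Hspa8 below the diagonal and positive r above it, and the highest value below is 0.75, between Junb and Ier2.

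Among 10719 other genes at or above the 25th percentile of level, those most like Fos over the 10 samples, by Pearson r, were Six5 (0.976), Efna4 (0.938), Rmnd5a (0.907), Zscan22 (0.905) and Rgs19 (0.892). Those most like Hspa1a were Lepre1 (0.927), Adck5 (0.904), Ggh (0.876), Dock10 (0.869) and Ctbs (0.867). These are the highest of many correlations over few samples and carry no p.

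Lists of cell type markers were set beside these genes. In the null samples 9 of 12 markers of telencephalon had a change below 0, and Dlx1 (-1.38, limma adjusted p = 0.000369) and Dlx2 (-1.68, adjusted p = 0.0128), homeobox genes of its ventral part, fell. In the missense samples 10 of the 12 had a change below 0, with none called. The missense change was -0.32 (SE 0.08) for Dlx1 and -0.52 (SE 0.16) for Dlx2, both with a limma adjusted p of 0.884. The summed level of these 12 genes was 1387 to 1662 CPM in the null samples, against 1929 to 2247 CPM in the null-set wild types, and 1585 to 1898 CPM in the missense samples, against 2004 to 2202 CPM in the missense-set wild types. All 16 markers of microglia and macrophages had a change above 0 in the null samples, with a sum of 168 to 178 CPM against 87.1 to 94.5 CPM in the null-set wild types, and 14 of 16 in the missense samples, with 144 to 180.2 CPM against 111 to 129 CPM in the missense-set wild types. Neither list had a gene called higher. All 14 markers of head mesenchyme and meninges had a change above 0 in both mutants, with sums of 2810 to 3771 CPM in the null samples, against 1918 to 2265 CPM in the null-set wild types. Their sums were 2566 to 3491 CPM in the missense samples, against 2021 to 3324 CPM in the missense-set wild types. A change above 0 was found for 16 of 18 markers of endothelium and pericytes in the null and 7 in the missense samples, and for 9 of 10 erythroid markers in the null and 7 in the missense samples. A change below 0 was found for 7 of 10 neuron markers in the null and 9 in the missense samples, and for 5 of 8 markers of radial glia in each. None of these genes was called. The missense-set wild types had higher means than the null-set wild types for 14 of 16 microglia and 15 of 18 endothelium markers. They did so for 11 of 14 mesenchyme, 8 of 10 erythroid and 10 of 10 neuron markers. For telencephalon it was 7 of 12, and for radial glia 3 of 8, with no marker called. The same wild types enter the null and missense changes, so these counts are not independent. The part of the marker shifts in the levels of Jun, Fos or Hspa1a was not tested.

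Of 53 further immediate early genes, 49 have a row, and Fosl1, Egr2, Egr3 and Egr4 have none. In the null samples 27 had a log2 change above 0 and 22 below, with a median of 0.05 and 0 called in limma. At an unadjusted p under 0.05, 4 were higher and 1 lower, where 8.32% of all genes passed. The missense comparison had 29 above 0 and 20 below, with a median of 0.05, 0 called and 1 gene above 0 with an unadjusted p under 0.05, where 5.54% of all genes passed. The median over all genes was 0.03 in the null and 0.02 in the missense comparison.

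Nr4a1, an orphan nuclear receptor induced by activity, was at 1.90 and 2.13 in the null samples, against 0.97 and -0.66 in the null-set wild types (change 1.86, SE 0.62, limma adjusted p = 0.412). Klf6, a zinc finger factor, had a null change of 0.41 (SE 0.14, adjusted p = 0.425), and Zfp36l1, an RNA-binding protein that promotes decay of AU-rich transcripts, one of 0.26 (SE 0.09, adjusted p = 0.456). Dusp6, the phosphatase that limits ERK signalling, was at 5.04, 5.17 and 5.29 in the missense samples, against 4.70, 4.83 and 4.61 in the missense-set wild types (change 0.45, SE 0.13, limma adjusted p = 0.884). Fosl2, another Fos family member, had a missense change of 0.50 (SE 0.25, adjusted p = 0.902), and Zfp36l1 one of 0.15 (SE 0.08, adjusted p = 0.902).

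No regulator of these genes was called. Of 17 genes of serum response and cAMP response control, 16 have a row, with 0 called in limma in either comparison and unadjusted p-values under 0.05 for 1 gene in the null samples (8.32% of all genes) and 2 genes in the missense samples (5.54% of all genes), all with changes above 0. In the null samples 10 were above 0 and 6 below, with a median of 0.08, and in the missense samples 7 were above and 9 below, with a median of -0.02. Elk4, a ternary complex factor, was at 5.65 and 5.60 in the null samples, against 4.29 and 5.19 in the null-set wild types (change 0.88, SE 0.28, limma adjusted p = 0.397). The CREB coactivators Crtc1 and Crtc3 had null changes of -0.18 (SE 0.12) and 0.25 (SE 0.25). In the missense samples the coactivator gene Crtc2 had a change of 0.38 (SE 0.14), the kinase gene Rps6ka1 one of 0.49 (SE 0.22) and Elk1 one of -0.20 (SE 0.13), with none called.

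Of 39 other genes of the heat shock response, mostly cytosolic, 38 have a row, Cryab being the one without. The list also holds Hspd1 and Hspe1 of mitochondria and Serpinh1 of the endoplasmic reticulum. In the null samples 15 had a change above 0 and 23 below, with a median of -0.03, and in the missense samples 31 were above and 7 below, with a median of 0.07. Between the wild types of the 2 sets, 29 of the 38 genes were lower in the missense set, 8 of them at an unadjusted limma p under 0.05, against 7.37% of all genes in either direction, and 0 at an adjusted one, with a median difference of -0.13. This difference and the missense change share the missense-set wild types, so their counts are not independent. In neither mutant was a gene of the list called in limma. Unadjusted p-values under 0.05 were found for 1 higher and 1 lower gene in the null samples (8.32% of all genes) and for 3 higher genes in the missense samples (5.54% of all genes). Stub1, the co-chaperone ubiquitin ligase CHIP, was at 4.65 and 5.35 in the null samples, against 5.95 and 5.71 in the null-set wild types (change -0.83, SE 0.24, limma adjusted p = 0.328). Hspb8, a small heat shock protein, had a null change of 0.69 (SE 0.27, adjusted p = 0.509).

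Hspa1l, the neighbour of Hspa1a and Hspa1b, was at 3.65 and 3.35 in the null samples, against 3.25 and 2.90 in the null-set wild types (change 0.43, SE 0.24, limma adjusted p = 0.705). It was at 3.44, 3.60 and 3.51 in the missense samples, against 2.86, 3.16 and 3.20 in the missense-set wild types (change 0.44, SE 0.20, limma adjusted p = 0.896). Its groups did not overlap in either comparison, with the mutants higher, as in 22.9% of all genes for the null and 6.02% for the missense samples. The share of genes higher in both comparisons was not computed. In the missense samples Hsp90aa1, the inducible HSP90, had a change of 0.16 (SE 0.06, adjusted p = 0.884), and Chordc1, an HSP90 partner, one of 0.22 (SE 0.10, adjusted p = 0.896).

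Chaperones of the endoplasmic reticulum and mitochondria, 14 of 14 with a row, had a change above 0 in 11 genes of the null samples (median 0.13) and in 13 of the missense samples (median 0.17). None was called in limma, while unadjusted p-values under 0.05 were found for 5 genes in the missense samples (5.54% of all genes) and 1 in the null samples (8.32% of all genes), each with a change above 0. Hspa5, the endoplasmic HSP70 known as BiP, was at 8.84, 8.88 and 9.07 in the missense samples, against 8.62, 8.51 and 8.62 in the missense-set wild types (change 0.35, SE 0.10, limma adjusted p = 0.884). Canx and Calr, lectin chaperones of glycoprotein folding, had missense changes of 0.25 (SE 0.07) and 0.25 (SE 0.09), both with adjusted p of 0.884. In the null samples Pdia4, a disulphide isomerase, had a change of 0.22 (SE 0.10, adjusted p = 0.597), Calr one of 0.19 (SE 0.11) and Dnajc3, a BiP co-chaperone, one of 0.20 (SE 0.11). Between the wild types, 12 of these 14 genes were lower in the missense set than in the null set, 6 of them at an unadjusted limma p under 0.05, against 7.37% of all genes in either direction, and 0 at an adjusted one. The same missense-set wild types enter this difference and the missense change, so these counts are not independent.

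Cirbp and Rbm3, RNA-binding proteins induced by cooling, were listed as a pair that responds to temperature in the other direction. Cirbp was at 6.22 and 6.19 in the null samples, against 6.98 and 6.44 in the null-set wild types (change -0.50, SE 0.16, limma adjusted p = 0.375). Rbm3 had a null change of 0.00 (SE 0.14). The missense change was -0.15 (SE 0.13) for Cirbp and 0.01 (SE 0.11) for Rbm3.

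**Figure D4:**
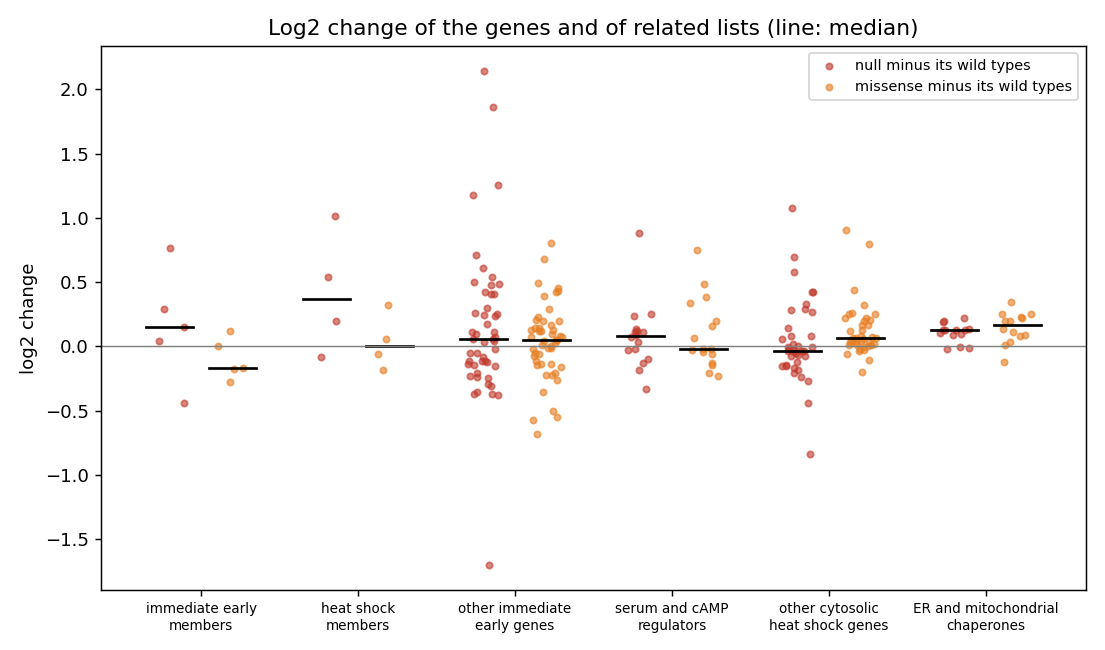
Log2 change (vertical axis) of the 9 genes, split by family, and of each measured gene of the related lists except Cirbp and Rbm3. Changes are null samples minus null-set wild types and missense samples minus missense-set wild types, with lines at the medians. The medians lie between -0.17, that of the immediate early genes in the missense samples, and 0.37, that of the heat shock genes in the null samples.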

How the data were processed

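The deposited file gives a log2 value for each gene and sample, for 14797 genes, filtered and normalized by the authors. Its unit was read from the values as log2 CPM with a small offset, with a lowest value of -3.16. No aligner, counter, annotation or depth is given in the labels or the file, and per the submitters' processing notes the build is GRCm39. Values do not fall in whole reads, so no count test was run, and 1 row without a name was left out.

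All 10 samples were fitted as 4 group means with limma 3.58.1 in R 4.3.3 and data.table (1.17.8), with variances that follow a trend on level (6 residual and 4.83 prior degrees of freedom) and Benjamini-Hochberg adjustment over 14796 genes. Tests were 2-sided, with a threshold of 0.05, no filter and 95% intervals. The fit was tested on simulated data. Correlations used 100000 permutations per pair over all 10 samples, without regard to group. Their p-values therefore do not separate differences between groups from variation within groups. Python 3.11.15, pandas 2.3.3, scipy 1.17.1 and matplotlib 3.10.9 did the rest.

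The genes, the related lists and the marker lists were chosen with earlier results of these data known. From each list, called genes and up to 3 genes of smallest p per comparison were eligible to be named, and for Fos and Hspa1a the 5 genes of highest Pearson r. The values of some genes that meet this rule are left out here. Older symbols were matched through RefSeq synonyms. The model was refitted with all wild types as 1 group, after quantile normalization or centring of each sample on its median, above the 25th percentile of level, with a pseudocount of 1, with untrended or robust variances, with sample weights, for each set by itself, and without each sample in turn. Where 1 sample was left in a group it was assumed to vary like the others.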

Additional observations from a re-analysis of the deposited data

How the results depend on the processing

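For the 9 genes in both comparisons, 336 alternative values were computed for 18 changes: 310 kept their direction and 26 reversed, all of them of changes that had not passed the test. Fos, Junb, Egr1, Hspa1a and Hspa1b fell below the filter on level and had no value with it. The changes of Jun, Hspa1b and Hspa8 kept their direction in both comparisons, and those of Fos, Ier2 and Hspa1a in the null comparison, though some came close to 0. Hspa8 ranged from 0.001928 (without null 1) to 0.3933 and Fos from 0.4026 (without null-set wild type 2) to 1.156 in the null samples, and Hspa1b from 0.02822 (without missense-set wild type 2) to 0.6058 in the missense samples. None of the 9 genes was called under any alternative, and the smallest adjusted p was 0.1044, that of Jun in the null samples with all wild types as 1 group. Jun ranged from -0.4766 to -0.3783 in the null samples and from -0.2274 to -0.1298 in the missense samples. Hspa1a ranged from 0.6128 (with all wild types as 1 group) to 1.191 in the null samples. With all wild types as 1 group the null change of Junb was -0.008734 and that of Dnajb1 0.01374, and the missense change of Fos was -0.1433 and that of Hspa1a 0.08396. With quantile normalization the null change of Junb was -0.1254 and that of Egr1 -0.01812, and the missense change of Fos was -0.07282 and that of Ier2 -0.0262. With sample weights the missense change of Fos was -0.06876 and that of Ier2 -0.05959, and with median-centred samples that of Ier2 was -0.02379. The summed Hspa1a and Hspa1b row had a missense change of 0.1162, against -0.18 for Hspa1a alone. Leaving out 1 sample at a time gave null changes from -0.1549 to 0.242 for Junb, -0.2985 to 0.5947 for Egr1 and -0.1867 to 0.02733 for Dnajb1. It gave missense changes from -0.4901 to 0.5073 for Fos, -0.6669 to 0.1364 for Junb, -0.4157 to 0.03413 for Egr1, -0.1398 to 0.1065 for Ier2, -0.4852 to 0.2493 for Hspa1a and -0.1473 to 0.03946 for Dnajb1. Over all genes, the number called in the null comparison was 24, against 59 with all wild types as 1 group, 6 with no trend, 0 with the samples of 1 set alone and 2 to 23 when 1 sample was left out: 2 without null 2, 7 without null-set wild type 2, 8 without missense-set wild type 1, 12 without null-set wild type 1, 12 without missense-set wild type 3 and 14 without missense 2. The missense count of 3 became 2 to 10 when 1 sample was left out, the highest without missense-set wild type 2, with 6 without null 1 and 6 without null 2. For the difference, 2 genes were called, against 9 with all wild types as 1 group, 1 with median-centred samples, 0 with no trend and 1 to 10 when 1 sample was left out. Between the wild types 14 were called, against 8 with the filter on level and 7 to 21 when 1 sample was left out. The median r between the genes was 0.4808 in the 6 samples of the missense set. The causes were not tested. No paired analysis was possible because the labels number samples within a title and do not pair a mutant with a wild type. The sequencing depth is not known, so no limit from it is given.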
